A study of Mus musculus with 3 samples.

Results

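The regions described here are places in the mouse genome where Flag-tagged Bcl11a CUT&Tag signal was called inside a protein-coding gene, not at its end but within 10 kb of it. They are called near-end regions below. Peaks of 3 libraries that shared at least 1 bp were merged, and a merged region to which every library contributed is called reproducible. A reproducible region was taken when its summit lay inside a protein-coding gene, over 1 kb from every end of any gene, and at most 10 kb from the nearest end of the gene that held it. Of 22987 reproducible regions, 3337 (14.5%) met this rule. The rule used position alone and no signal strength. The other reproducible regions lay within 1 kb of a protein-coding gene end (8513, 37.0%), deeper than 10 kb inside a protein-coding gene (4390, 19.1%), outside every gene (4326, 18.8%), at the end of another kind of gene (1418, 6.17%) or inside one (1003, 4.36%).

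The cells were LSK cells sorted from mouse bone marrow, that is, cells without lineage marks but with Sca-1 and Kit, among which are the blood stem cells and the earliest progenitors. The mice were Flag-Bcl11a knock-ins whose Bcl11a protein carries 3xFlag at its N-terminus, while the genotype label of every library reads wildtype. The labels give no age. All 3 libraries form a single group, nothing says that they came from separate animals, and SDs below measure only the spread between these libraries, which may be technical. Without an untagged or input library among the data analysed here, tagged protein and open chromatin cut in its absence cannot be told apart in any value below.

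Bcl11a is a zinc finger repressor known for silencing the human fetal globin genes and for its part in the development of B cells and the upkeep of blood stem cells. Many genes have more than 1 transcription start, and a start inside the outer limits of a gene, an internal start, gives a shorter transcript. The first introns of genes are also a common home of enhancers, short stretches to which factors bind and from which they act on a promoter. CUT&Tag directs a transposase to a protein through antibodies and sequences the DNA it cuts, and it tends to read open DNA such as promoters even where the protein is absent.

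A part of the near-end regions lay at internal starts listed by RefSeq, and the sequences before such starts are shown first because their CpG content goes with the presence of a region. Each line gives the 120 bases before an internal start of a listed gene, on the strand of the gene, from RefSeq for GRCm38.p6, the assembly behind mm10. Capitals mark CpG dinucleotides. The genes were picked after their values were seen, to show CpG-rich and CpG-poor starts with and without a region. The first 7 have the summit of a near-end region within 500 bp, and Rbpms2, Egr2, Irf8 and Satb1 have none.

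Dnmt1: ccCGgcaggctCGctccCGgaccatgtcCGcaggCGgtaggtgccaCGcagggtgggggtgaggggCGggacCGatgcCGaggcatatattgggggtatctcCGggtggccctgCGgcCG
Ccnd3: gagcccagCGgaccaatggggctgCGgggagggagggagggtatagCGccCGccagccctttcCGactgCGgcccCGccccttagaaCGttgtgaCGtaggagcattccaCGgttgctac
Stat5a: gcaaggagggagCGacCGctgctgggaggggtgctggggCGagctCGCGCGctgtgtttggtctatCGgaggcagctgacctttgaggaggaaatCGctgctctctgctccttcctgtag
Bcl11a: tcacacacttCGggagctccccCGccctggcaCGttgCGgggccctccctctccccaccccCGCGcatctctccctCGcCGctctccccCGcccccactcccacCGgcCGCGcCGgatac
Cdkn1a: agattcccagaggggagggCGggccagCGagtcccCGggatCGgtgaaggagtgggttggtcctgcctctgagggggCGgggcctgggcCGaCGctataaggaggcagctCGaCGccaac
Spn: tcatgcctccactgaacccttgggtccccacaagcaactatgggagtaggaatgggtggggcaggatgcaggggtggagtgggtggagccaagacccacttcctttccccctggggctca
Fcgr3: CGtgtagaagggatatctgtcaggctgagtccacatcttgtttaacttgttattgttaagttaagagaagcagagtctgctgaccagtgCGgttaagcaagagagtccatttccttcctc
Rbpms2: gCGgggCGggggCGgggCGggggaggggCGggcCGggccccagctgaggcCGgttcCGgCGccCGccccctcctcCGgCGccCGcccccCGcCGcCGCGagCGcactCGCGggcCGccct
Egr2: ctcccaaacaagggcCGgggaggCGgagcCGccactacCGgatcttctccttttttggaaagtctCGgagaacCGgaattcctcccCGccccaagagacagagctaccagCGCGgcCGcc
Irf8: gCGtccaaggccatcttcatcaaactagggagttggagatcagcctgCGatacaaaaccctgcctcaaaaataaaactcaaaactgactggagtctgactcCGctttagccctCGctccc
Satb1: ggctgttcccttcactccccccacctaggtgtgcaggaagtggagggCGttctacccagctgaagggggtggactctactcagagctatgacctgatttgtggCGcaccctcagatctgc

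The stretches of Dnmt1 (chr9:20952624-20952743), Spn (chr7:127137824-127137943), Fcgr3 (chr1:171059404-171059523) and Satb1 (chr17:51826589-51826708) are on the minus strand. Those of Ccnd3 (chr17:47593347-47593466), Stat5a (chr11:100860364-100860483), Bcl11a (chr11:24080575-24080694), Cdkn1a (chr17:29093649-29093768), Rbpms2 (chr9:65630462-65630581), Egr2 (chr10:67537446-67537565) and Irf8 (chr8:120738519-120738638) are on the plus strand. The first 5 hold 8 to 13 CpG dinucleotides in these 120 bases. Rbpms2 and Egr2, without a summit within 500 bp, hold 21 and 10. In Rbpms2 a near-end region (chr9:65630633-65631946) nonetheless begins close to the printed start, with its summit 1059 bp away. Spn holds 0, Fcgr3 and Satb1 hold 2 each and Irf8 holds 4. The summit of the near-end region lay 154 bp from the printed start of Dnmt1, 111 bp for Ccnd3, 122 bp for Stat5a, 342 bp for Bcl11a, 51 bp for Cdkn1a, 104 bp for Spn and 38 bp for Fcgr3. CpG-rich and CpG-poor internal starts both occur among those with a summit within 500 bp and among those without.

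The 3 libraries held 38739, 36466 and 43469 peaks, on a genome background of 1.07, 1.41 and 1.95 fragments per base, so that library 3 was the deepest. In near-end regions the median pileup at the summit, the number of overlapping fragments, was 20, 26 and 32 in libraries 1, 2 and 3. The middle 50% of near-end regions had pileups of 14 to 32 in library 1, 17 to 42 in library 2 and 22 to 51 in library 3, and the lowest were 6, 7 and 8. The typical near-end region was thus well sampled, and the weakest rested on few fragments. Summits of the 3 libraries lay within 200 bp of each other in 70.9% of near-end regions, and the median SD of log2 fold enrichment across libraries was 0.19. Over the 3337 regions, the fold enrichments of 2 libraries had a Spearman's rho of 0.75 to 0.79, given as a description, since the regions share libraries and local background.

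The near-end regions lay in 2805 of the 19211 protein-coding genes that leave room for one (14.6%). Of these genes, 2349 held 1 region, 388 held 2, 61 held 3, 6 held 4 and 1 held 5. The genes with a region were longer (median 27.3 kb, against 20.2 kb for genes with room and none), but the stretch eligible for a region differed less (16.7 against 15.3 kb). On chromosome X, 4.68% of genes with room held a region, against 15.1% on the autosomes, and none lay on chromosome Y. The joined regions had a median width of 730 bp and a median distance of 3780 bp from the gene end. In 13.2% the edge of the region, though not its summit, came within 1 kb of the end.

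Near-end regions were weaker than those at gene ends and close in strength to other regions away from them. Fold enrichment, the peak caller's ratio of summit pileup to local background and the authors' own value for each peak, had medians over near-end regions of 5.65, 5.56 and 5.27 in libraries 1, 2 and 3 (5.50 ± 0.20, SD, n = 3). Gene-end regions had 7.20, 7.48 and 6.96, above the near-end median in each library. On the log2 scale the median difference was -0.39 ± 0.04 (SD, n = 3). It had the same sign in 3 of 3 libraries, and the exact sign-flip permutation test over libraries (two-sided) gave p = 0.25, the smallest that 3 libraries allow. No difference between kinds of region can therefore pass a threshold of 0.05 here.

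Against regions deeper inside genes and regions between genes, the direction depended on the measure. The log2 difference in fold enrichment was -0.08 ± 0.004 against deep regions and -0.11 ± 0.01 against intergenic ones (SD, n = 3), both negative in each library. With summit pileup over the background of the library in place of fold enrichment, it was 0.24 ± 0.005 and 0.21 ± 0.05, positive in each library (exact p = 0.25 for all 4, the smallest possible). Fold enrichment is taken over a background near the peak and the pileup ratio over that of the whole library, so the order of these 3 kinds of region cannot be given without naming the measure. In width, near-end regions had medians of 450, 560 and 619 bp, between deep regions (432, 525 and 586 bp) and gene-end regions (561, 722 and 743 bp).

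**Figure D1:**
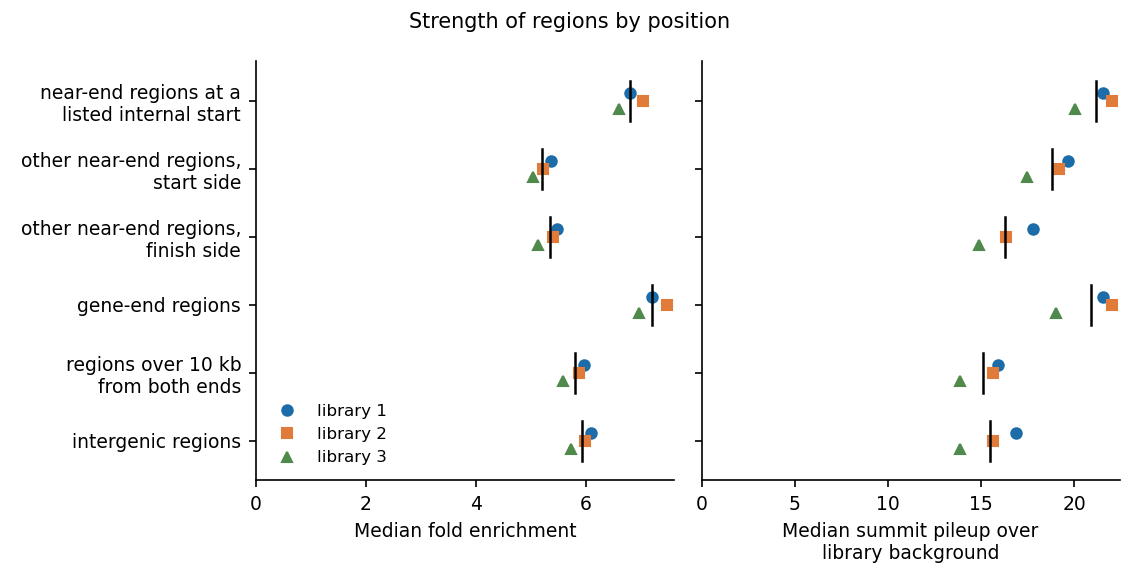
Median fold enrichment (left) and median summit pileup over the library background (right) of 6 sets of reproducible regions, with a point for each library and a line at the mean of the 3. Near-end regions at a listed internal start lie near gene-end regions on both scales, while the other near-end regions lie below deep and intergenic regions on the left and above them on the right.

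Medians over regions that join the libraries, and the order of regions by strength, use the geometric mean of the 3 libraries, while all other means are arithmetic. At the near limit of the rule the median was lower inside than outside. The 112 near-end regions 1000 to 1100 bp from the gene end had a median fold enrichment of 5.12, and the 146 regions 900 to 1000 bp inside a gene, just outside the rule, had 5.98. At the far limit it was higher inside, where 101 regions at 9500 to 10000 bp had 5.57 and 100 regions at 10000 to 10500 bp, just outside, had 5.30.

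Density fell away from gene ends. Per Mb of gene interior where a summit would have met the rule, there were 14.1 near-end regions, against 6.01 per Mb for regions deeper than 10 kb. In the first kilobase allowed, 1 to 2 kb from the end, there were 25.7 per Mb, and in the last, 9 to 10 kb, 11.1 per Mb, a ratio of 2.31. In the peaks of each library taken alone this ratio was 2.05, 2.25 and 2.0. The fall lay mostly between 1 and 4 kb, where density went from 25.7 to 15.5 and 12.5 per Mb, and beyond 4 kb it stayed between 10.7 and 12.5 per Mb. Median fold enrichment did not follow it, with 5.35 at 1 to 2 kb and 5.73 at 9 to 10 kb.

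The crowding lay on the side of the transcription start. The strand of the gene was known for 2648 near-end regions (79.4%), and 1700 of them (64.2%, exact 95% interval 62.3 to 66.0%, for counting error only) were nearest the start. In single libraries this share was 59.1, 59.8 and 58.5%. Density was 18 per Mb on the start side and 10 per Mb on the finish side. On the start side it went from 38.3 per Mb at 1 to 2 kb to 12.3 per Mb at 9 to 10 kb, and on the finish side from 13.0 to 8.78 per Mb. Away from the first 3 kb, both sides lay within a narrow band, 12.3 to 14.2 per Mb at the start and 8.35 to 11.6 per Mb at the finish.

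**Figure D2:**
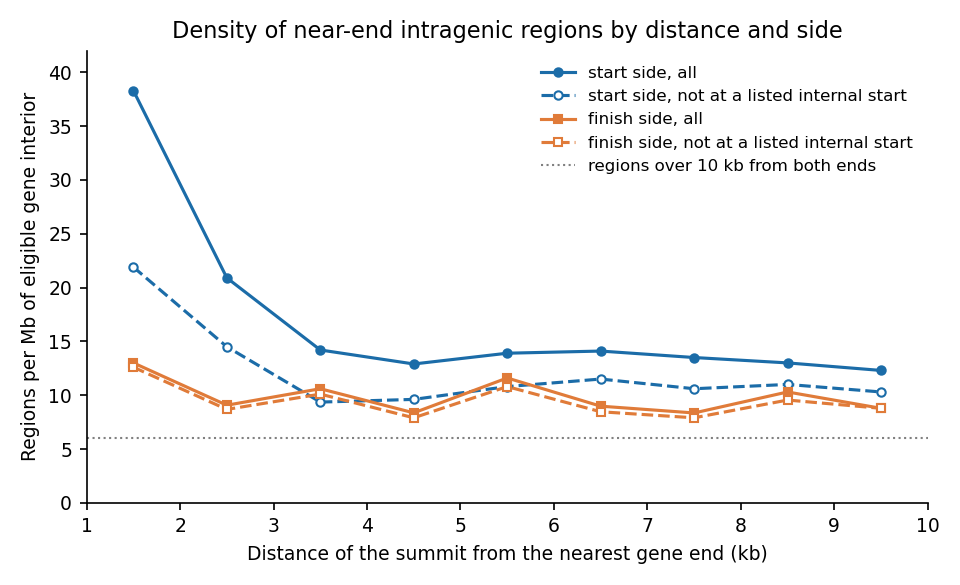
Near-end regions per Mb of eligible gene interior in 1 kb steps from the nearest gene end, for genes of known strand, with (filled) and without (open) those within 500 bp of a listed internal start; the dotted line marks regions deeper than 10 kb. The start side falls from 38.3 to 12.3 per Mb, and without internal starts from 21.9 to 10.3 per Mb, while the finish side stays between 8.35 and 13.0 per Mb.

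Internal starts made up part of this. Of the near-end regions of known strand, 559 (21.1%, exact 95% interval 19.6 to 22.7%) had their summit within 500 bp of an internal start listed for the same gene, against 257 of 3475 deep regions (7.40%). In single libraries the share of near-end regions was 14.2, 15 and 12.6%. Of these 559 regions, 513 (91.8%) were on the start side. The windows around internal starts that could meet the rule took up 0.97% of the eligible sequence and held 293 near-end regions per Mb, against 11.3 per Mb outside them. With the internal starts left out, start-side density at 1 to 2 kb was 21.9 per Mb, still above the 12.6 per Mb of the finish side. The list of starts is not complete, so unlisted starts may be among the rest. It holds no start for the genes of 689 near-end regions. These include every region on chromosome 18 and regions on other chromosomes, such as those of Fli1 and Spi1. The 689 regions have no known strand and are left out of all counts by side or internal start.

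Near-end regions at internal starts resembled gene-end regions in strength and width. Their median fold enrichment was 6.8, 7.03 and 6.61 in libraries 1, 2 and 3, against 5.41, 5.32 and 5.09 for the 2089 others of known strand. The log2 difference was 0.37 ± 0.04 (SD, n = 3), a ratio of 1.29, positive in 3 of 3 libraries (exact sign-flip p = 0.25, the smallest possible). They were also wider, with medians of 541, 721 and 766 bp against 422, 523 and 591 bp. Set against gene-end regions, the log2 difference was -0.08 ± 0.007 in fold enrichment, 0.03 ± 0.04 in pileup over library background and -0.003 ± 0.05 in width (SD, n = 3). The last pair of differences lay within the spread between libraries. A like shift was seen at the 257 deep regions at an internal start. Their median fold enrichment was 6.33, 6.53 and 6.11, against 5.96, 5.87 and 5.58 for all deep regions. Their widths were 513, 684 and 677 bp, against 432, 525 and 586 bp. For near-end regions not at an internal start, the direction between the sides depended on the measure. Median fold enrichment was 5.37, 5.23 and 5.03 on the start side and 5.48, 5.40 and 5.13 on the finish side, a log2 difference of -0.04 ± 0.01 (SD, n = 3), negative in each library. In pileup over library background the start side was higher in each library, by 0.20 ± 0.05 on the log2 scale, a ratio of 1.15 (exact sign-flip p = 0.25 for both, the smallest possible).

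Seen from the starts, 2138 listed internal starts of 1781 genes lay where a near-end region could be. Of these, 616 (28.8%), in 532 genes, had the summit of a near-end region within 500 bp. Only these count as internal starts with a region. The others may still lie under a region with a more distant summit, or beside a gene-end region. The 300 bases around the starts with a region had a median of 22 CpG dinucleotides and 62.7% G and C, against 6 and 53.0% for those without. Starts at gene ends had almost the same medians, 23 CpG and 62.7% with a region and 5 CpG and 50.7% without. The share of internal starts with a region was 4.49% at 0 to 4 CpG, 14.5% at 5 to 9, 31.7% at 10 to 14, 43.5% at 15 to 19, 59.7% at 20 to 29 and 52.7% at 30 or more. It did not go on rising at the top, where the exact intervals of the last 2 groups overlap. Transcription was not measured, and its part in this relation was not tested.

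**Figure D3:**
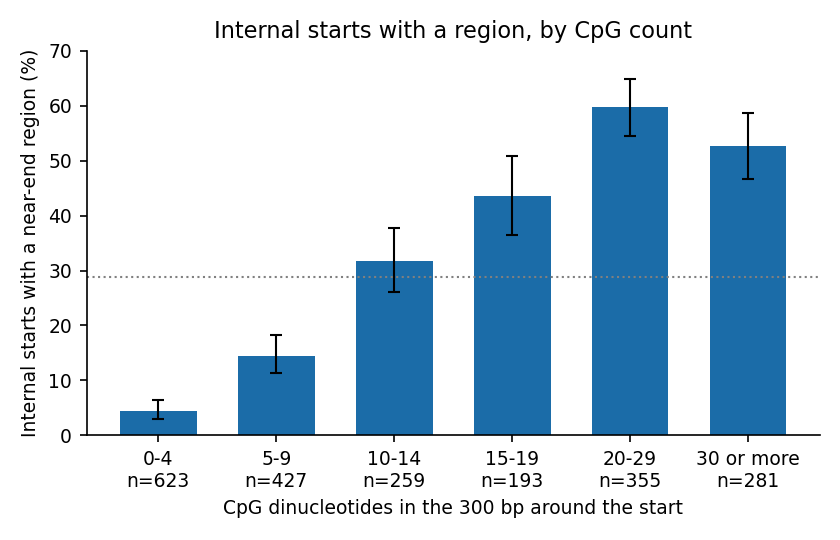
Share of listed internal starts with the summit of a near-end region within 500 bp, by the number of CpG dinucleotides in the 300 bp around the start. Bars are shares, and whiskers are exact 95% intervals for counting error only. The dotted line is the share over all 2138 starts, 28.8%. The share goes from 4.49% at 0 to 4 CpG to 59.7% at 20 to 29.

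Short motifs in the same 300 bases differed in how often they stood at starts with and without a region. The letters were searched on both strands, a match being a description and not a binding site. GGGCGG, the core of the GC box, stood at 64.6% of internal starts with a region, 31.4% of those without and 35.7% of all 32851 listed starts. It contains a CpG and so is tied to the CpG count. TGACCA, the motif known for BCL11A at the human globin promoters, stood at 11.4, 13.8 and 13.6%. GGAAGT, an ETS core, stood at 27.4, 19.3 and 23.8%, and CCCTC at 80.8, 72.2 and 66.0%. CCAAT, the core of the CCAAT box, was at 32.8, 34.4 and 37.4%. Starts at gene ends with and without a region differed in the same direction for each of these motifs except CCAAT. There GGGCGG stood at 72.2% with a region and 29.9% without, GGAAGT at 29.8 and 22.3%, and CCAAT at 40.4 and 37.9%. The differences are thus not particular to internal starts.

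The other motifs were no more frequent at internal starts with a region than without. TGTGGT, a RUNX core, was at 14.8% with a region, 16.8% without and 16.8% of all starts. AGATAA, the core read by GATA factors, was at 6.49, 12.7 and 11.2%, and TGANTCA, the AP-1 motif, at 5.52, 7.88 and 7.81%. CANNTG, the E-box, was at 62.3, 72.5 and 72.3%, and TTTCNNTTT, part of the interferon response element, at 5.52, 11.3 and 10.6%. All of these motifs were also less frequent at gene-end starts with a region than without. AGATAA was there at 4.85 against 13.0%, and TTTCNNTTT at 5.74 against 12.5%. Internal starts with a region were richer in G and C than those without, with medians of 62.7 and 53.0%. The part of this composition in the motif shares was not tested. The GC box and the CCAAT box were added after the data were seen. These windows are those of starts and not of region summits, for which no genome sequence was used here.

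How often the nearest gene end of a near-end region was occupied differed by side and at internal starts. Occupied means a reproducible region with its summit within 1 kb of the end. The nearest end was occupied for 934 (28.0%), both ends for 107 (3.21%) and neither for 1727 (51.8%). With each library taken alone, the nearest end was occupied for 32.7, 34.3 and 36.2% of near-end regions. Over all ends of genes with room, 24.6% were occupied, 46.1% of starts and 3.99% of finishes. The 24.6% counts starts and finishes equally, while 64.2% of near-end regions of known strand were nearest the start. It is therefore not a matched background for the 28.0%. By position the nearest end was occupied for 49.2% of start-side regions away from internal starts and 6.65% (exact 95% interval 5.11 to 8.48%) of finish-side ones, close to the share of all starts and above that of all finishes. For regions at an internal start it was 18.2% (exact 95% interval 15.1 to 21.7%). That is below the share of all starts, although 91.8% of these regions were on the start side. Of the 559 regions at an internal start, 419 (75%) had neither end occupied. In all, 1455 of the 2805 genes held a near-end region with neither end occupied. The share of all genes with room that had neither end occupied was not counted, so these counts have no background beside them. The start of the gene was occupied in 44.1% of genes with a near-end region and in 46.4% of genes with room and none.

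Near-end regions also had closer neighbours than deep ones. Another reproducible region had its summit within 2 kb of 12.6% and within 5 kb of 30.8% of near-end regions, against 6.63% and 17.8% of deep regions. How many of these neighbours were gene-end regions was not counted.

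The strongest near-end regions were mostly narrow. The highest stood in Ttc21b (chr2:66189206-66189526), which encodes a protein of ciliary transport, with fold enrichments of 48.3, 43.4 and 37.4 and pileups of 583, 685 and 574 fragments in libraries 1, 2 and 3. It was followed by Slc45a1 (chr4:150644831-150645193) with 34.9, 31.8 and 28.0, and by Zc3h7a (chr16:11143906-11144390) with 31.5, 34.9 and 28.2. In all 3 genes every library was far above the median of 5.65, 5.56 and 5.27.

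In total 11 near-end regions had a geometric mean fold enrichment over 20, with 42.8 the highest and 20.7 the lowest. Beside those 3 they lay in Slc22a29, Cldn34d, Gm525, Sspn, Apool, Hsd11b1, Xkrx and Msl2. None was at a listed internal start, and 3 of the 11 were on chromosome X (Cldn34d, Apool and Xkrx), against 38 of the other 3326. Their peaks had median widths of 345, 321 and 361 bp, against 450, 560 and 620 bp, and median pileups of 204, 238 and 208, against 20, 26 and 32. Fold enrichment is pileup over local background, so choosing by fold partly fixes the pileup. Neither feature held for each of the 11, since Xkrx had pileups of only 45, 53 and 60 and Msl2 of 56, 47 and 66, and the joined region in Slc22a29 was 797 bp wide, above the median of 730 bp. The next 4 in geometric mean were in Asmt, Anapc5, E030030I06Rik and Zfp473, with arithmetic means of 18.8 ± 4.37, 18 ± 0.57, 17.4 ± 2.17 and 17.1 ± 1.33 (SD, n = 3). Of these, only the Anapc5 region, in a gene for a subunit of the anaphase-promoting complex, was at a listed internal start (219 bp away).

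The genes with most near-end regions varied in strength. In the first 10 of them the highest region had a geometric mean of 4.23 to 12.9. Ties in count were broken by the highest region, so these values do not compare such genes with others. Ubxn11 held 5, with mean fold enrichments of 2.60 to 4.25. The genes with 4 were Slc43a2, an amino acid transporter, Lat2, an adaptor of immune receptor signalling, Csk, the kinase that restrains Src kinases, Ccnd3, Spns2, a transporter of sphingosine-1-phosphate, and Lif, a cytokine. In Slc43a2 the means were 9.45 ± 0.91, 5.35 ± 0.80, 5.14 ± 0.31 and 4.12 ± 0.89 (SD, n = 3). All 4 regions of Spns2 and 3 of 4 of Lif lay on the start side. Among genes with 3, Ctdp1 held a region at 13.0 ± 1.33, Cnnm2 one at 10.5 ± 0.87 and Gm46963 one at 10.1 ± 0.26.

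The regions that varied most between libraries were in P3h1, with fold enrichments of 3.39, 8.86 and 3.87, in Slc25a54, with 4.84, 3.32 and 8.79, and in Frmd6, with 8.30, 3.32 and 4.22. Each was high in a single library and rested there on 22, 25 and 17 fragments.

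The share of genes with a near-end region was above that of genes at large in 9 of 13 gene lists, at 22.6 to 50%. It was close to it for corepressor, stroma and neuronal genes (17.5, 18.2 and 14.3%), and none of 23 hepatocyte genes held one. The lists cover 385 genes, of which 107 held 137 near-end regions. Of the 112 with known strand, 80 were on the start side and 22 at a listed internal start, 13 of these with neither gene end occupied. The count of a list is read against the 14.6% of all genes with room, and density against 13.9 regions per Mb over all protein-coding genes. Density falls away from gene ends, and the lists were not matched for gene length or distance from an end. List densities are therefore not compared like for like. Genes were grouped by role with earlier results of these data known, so the counts are a description.

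**Figure D4:**
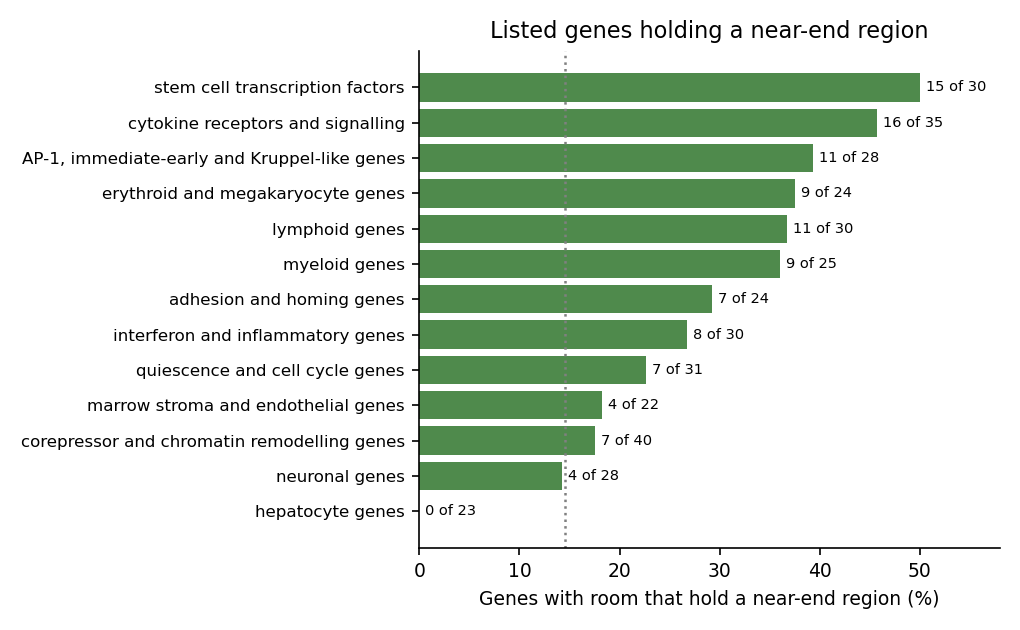
Share of genes with room that hold a near-end region in 13 gene lists, with the number of genes beside each bar; the dotted line is the share over all protein-coding genes with room, 14.6%. Stem cell transcription factors reach 15 of 30, while neuronal genes lie at the line (4 of 28) and hepatocyte genes at 0 of 23.

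Among stem cell transcription factors, 15 of 30 genes (50%) held 18 near-end regions, 46.9 per Mb. Their median fold enrichment of 4.36 was below the 5.43 of all near-end regions. Mecom, a zinc finger factor needed by blood stem cells, had 9.36, 9.60 and 9.80 (9.59 ± 0.22, SD, n = 3) at chr3:30507942-30509378, the highest of the list. Fli1, an ETS factor, held 2 regions, with 6.71 ± 1.54 and 3.28 ± 0.55. Ldb1, which bridges enhancers and promoters, held 2 with 4.70 ± 0.36 and 3.86 ± 0.28, the latter 212 bp from an internal start. The other genes of the list with a region were Cbfa2t3, Cbfb, Etv6, Gata2, Hhex, Hoxa9, Myb, Runx1, Runx3, Tal1 and Zfp521, with 1 each.

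Bcl11a itself held 2 near-end regions on the start side, with the start of the gene occupied. The region 1313 bp from the start (chr11:24077053-24078082) had fold enrichments of 8.53, 8.75 and 6.96 and pileups of 94, 155 and 142. The region 4473 bp from the start (chr11:24080628-24081402) had 3.68, 3.07 and 3.09 and pileups of 39, 50 and 60, so that the groups of values did not overlap. The weaker one lay 342 bp from the internal start whose sequence is printed above. The knock-in altered this same gene, and its part in either value was not tested.

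Lineage genes were also often held. In the lymphoid list 11 of 30 genes (36.7%) held 13 regions, none at a listed internal start. Ikzf1, the factor Ikaros, had 8.51, 11.4 and 8.40 at its finish side (chr11:11763060-11763683). Bach2, a repressor active in B cells, had 5.82, 9.41 and 8.99 near its start (chr4:32238345-32240221), lowest in library 1. The Bach2 region covers the annotated start of the gene. Its mean summit lay 1060 bp inside, just past the near limit, and the summits of the libraries spread over 878 bp. Foxo1 held regions near both ends, 5.71 ± 2.02 at the finish and 5.23 ± 0.76 at the start, and Lef1 likewise, 4.67 ± 0.54 and 4.53 ± 0.45 (SD, n = 3). In both genes the means at the 2 ends differed by less than their SDs. Within libraries the finish region of Lef1 was higher each time, by little (5.11, 4.85 and 4.07 against 4.95, 4.59 and 4.05). For Foxo1 the order changed between libraries.

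In the myeloid list 9 of 25 genes (36.0%) held 1 region each. Csf1r, the receptor of macrophage colony-stimulating factor, had the strongest region of this list, with 14.2, 12.6 and 11.7 (12.8 ± 1.26, SD, n = 3) and pileups of 153, 177 and 243 fragments at chr18:61107759-61109117, 2941 bp inside the gene. Csf2ra, the alpha chain of the receptor for granulocyte-macrophage colony-stimulating factor, had 9.40, 8.73 and 8.08. Itgam, the integrin chain known as CD11b, a mark of myeloid cells that the lineage gate removes, had 6.31, 8.75 and 6.72 near its finish. Nfil3 had 5.61 ± 0.56 at an internal start (SD, n = 3). Csf1r, Csf2ra and Itgam lay above the median of all near-end regions in every library, whereas the median of the list was 4.54.

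Erythroid and megakaryocyte genes held 13 regions in 9 of 24 genes (37.5%). Itga2b, the integrin chain CD41 of platelets and early progenitors, had 7.07 ± 0.52 near its finish and 3.88 ± 0.68 near its start. Zfpm1, the GATA cofactor FOG1, had 5.90 ± 0.56 and 3.23 ± 0.41, both near its finish and about 2 kb apart. Rbpms2, which encodes an RNA-binding protein, had 5.46 ± 0.19 and 4.29 ± 0.43, and Itgb3, the partner chain of Itga2b, 5.03 ± 1.42 and 4.53 ± 1.13 (SD, n = 3). The 2 values overlapped between libraries in Itgb3 and not in the other 3 genes.

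Cytokine receptors and signalling genes held 20 regions in 16 of 35 genes (45.7%), with 5 at internal starts. Ptpn6, the phosphatase SHP-1 that damps cytokine signals, had 9.60, 11.1 and 8.49 at chr6:124729780-124730646 and a second region of 5.59 ± 0.56. Pik3cd, the delta catalytic subunit of PI3 kinase, had 8.21, 8.24 and 8.56 at chr4:149697986-149698861, 475 bp from an internal start, and 6.07 ± 0.72 near its finish. Sh2b3, the adaptor Lnk that restrains cytokine signalling, had 5.96 ± 1.24 and 5.67 ± 0.39, and Inpp5d, the phosphatase SHIP1, 4.18 ± 0.83 and 3.85 ± 0.78 (SD, n = 3). The pairs in Sh2b3 and Inpp5d did not differ beyond their spread, and in both genes the order changed between libraries. Stat5a and Stat5b, neighbouring genes for signal transducers of cytokine receptors, each held a region at an internal start, 7.52 ± 1.33 and 4.78 ± 0.61.

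Adhesion and homing genes held 7 regions in 7 of 24 genes (29.2%). Spn, the sialoprotein CD43 of blood cells, had 11.8, 8.47 and 8.64 at chr7:127136997-127138265, highest in library 1, at the internal start printed above, which holds no CpG in the bases shown. Cxcr4, the receptor that holds stem cells in the marrow, had 8.37, 7.62 and 7.26 at a distance of 1244 bp from its occupied start. Pecam1 had 6.82 ± 0.76 and Jam3 had 5.92 ± 1.27 (SD, n = 3).

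Corepressor and chromatin remodelling genes stood close to the background, with 7 of 40 genes (17.5%) and 12.3 regions per Mb. The strongest listed gene of all was nonetheless here. Dnmt1, the maintenance DNA methyltransferase, had 13.9, 13.7 and 17.0 (14.9 ± 1.88, SD, n = 3) and pileups of 52, 66 and 120 at chr9:20952436-20953089, 7111 bp inside the gene at the CpG-rich internal start printed above, with neither gene end occupied. Dnmt3a, a de novo methyltransferase, held 2 regions of 4.84 ± 0.31 and 4.54 ± 0.54, whose summits lay 598 and 1165 bp from the nearest listed internal start, both outside the window of 500 bp. Chd3, a remodeller, had 7.34 ± 0.90, and Arid1a, a subunit of the BAF complex, 5.47 ± 1.11 at an internal start.

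Quiescence and cell cycle genes held 14 regions in 7 of 31 genes (22.6%), so that few genes carried several each, and their density was 44.3 per Mb. Ccnd3, cyclin D3, held 4, near both ends, of which the one at an internal start was highest, with 6.07, 6.55 and 6.13, and the others had means of 4.22 to 4.68. E2f2, an activator of S-phase genes, had 9.45, 8.71 and 8.61 at chr4:136177235-136178323 with pileups of 132, 176 and 231, beside regions of 5.20 ± 1.25 and 2.64 ± 0.40. Cdkn1a, the cell cycle inhibitor p21, had 8.35, 6.84 and 7.6 at chr17:29094362-29095668, 1657 bp from the internal start, while the region at that start had 3.25, 3.59 and 3.24. In Cdkn1a the region at the start was thus the weaker in every library, unlike Ccnd3. Foxo3, a factor of stem cell quiescence, had 6.44 ± 0.51 (SD, n = 3).

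Interferon and inflammatory genes held 11 regions in 8 of 30 genes (26.7%). Tnfrsf1b, the second receptor of tumour necrosis factor, had 6.88, 9.57 and 8.16 near its start and 7.02 ± 0.18 near its finish. Il1r1, the interleukin-1 receptor, had 6.98 ± 0.19 and 5.46 ± 0.97, the latter 41 bp from an internal start. Irf2 held 6.16 ± 0.92 and 5.62 ± 0.51 at opposite ends, and Irf5 held 7.14 ± 0.81 (SD, n = 3).

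Genes of AP-1, immediate-early and Kruppel-like factors had the highest density of the lists, 74.8 per Mb, with 16 regions in 11 of 28 genes (39.3%). Their room was the smallest of the lists, 0.214 Mb, and distance from gene ends was not matched. Their median fold enrichment was 4.40. Nr4a1, an immediate-early nuclear receptor, held 3 regions of 5.63 ± 0.52, 3.47 ± 0.26 and 3.27 ± 0.29, of which the first was higher in every library. Its relative Nr4a2 held 5.47 ± 0.52 and 4.04 ± 0.58. Maff, a small MAF protein, had 6.61, 8.38 and 7.39 at an internal start and 4.06 ± 0.06 near its finish, and Fosb, a partner of Jun, had 3.39 ± 0.78 and 3.16 ± 0.20 (SD, n = 3). Density was higher here although fold enrichment was lower than the median of all near-end regions.

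**Figure D5:**
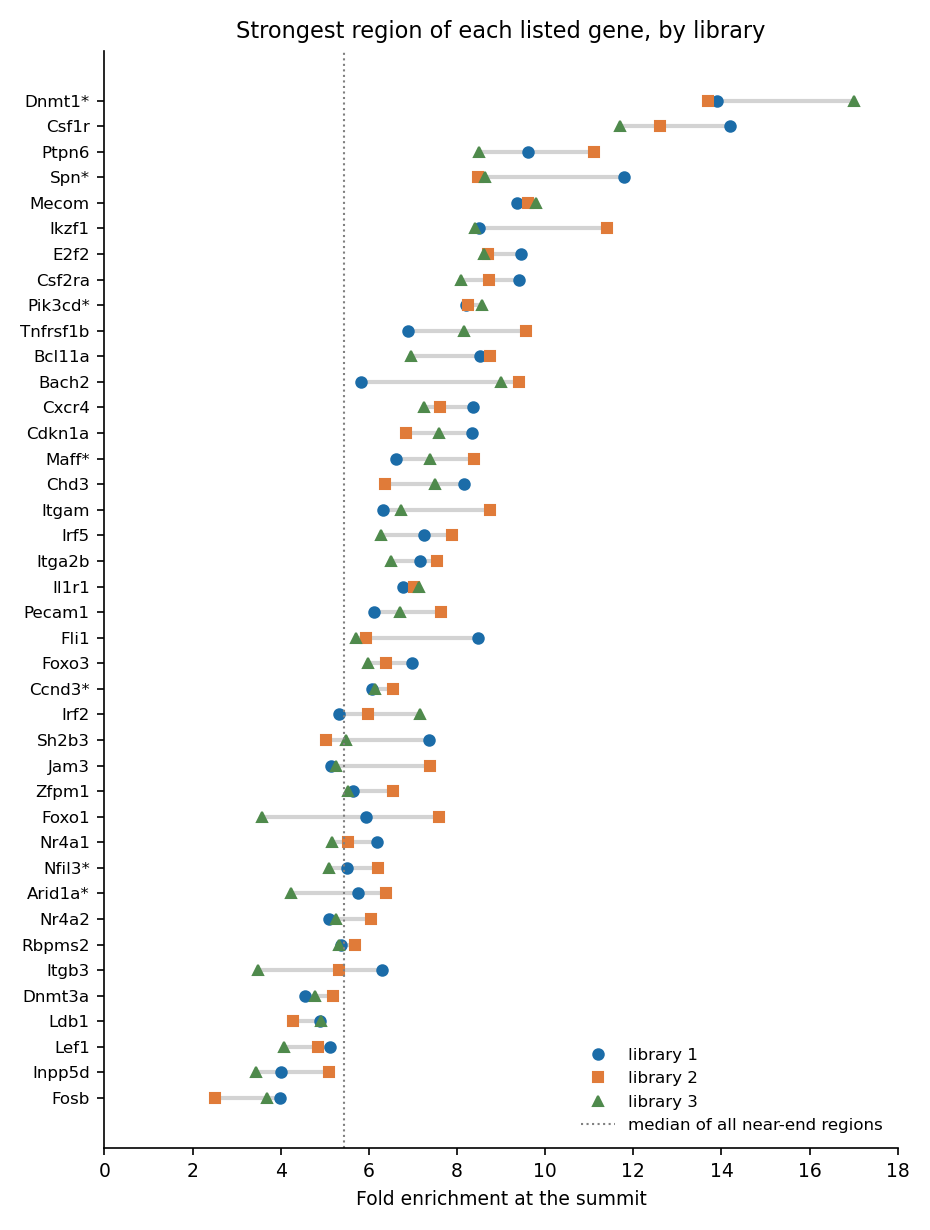
Fold enrichment in each library of the strongest near-end region of 40 genes, the 4 genes of each blood-related list with most near-end regions; an asterisk marks a region at a listed internal start and the dotted line the median of all near-end regions, 5.43. Dnmt1 and Csf1r lie above 11 in every library, and Fosb lies below the line in every library.

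The lists of other tissues stood close to the background or below it. Neuronal genes held 5 regions in 4 of 28 genes (14.3%). These were Gria2, a glutamate receptor subunit, with 7.73 ± 1.22 and 5.83 ± 1.03, Gad2, a GABA-making enzyme, with 8.01 ± 0.24, Slc17a7 with 5.05 ± 0.36 and Camk2a with 4.58 ± 0.50 (SD, n = 3). Marrow stroma and endothelial genes held 4 in 4 of 22 genes (18.2%), namely Pdgfrb, Eng, Pdgfra and Sox17, with means of 3.53 to 6.60. Hepatocyte genes held none in 23, but 4 of them held a region when library 3 was left out and a peak of the other 2 libraries was enough.

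Genes that mark the sorted cells and the cells removed by the gate gave little to read here, since the lists hold DNA positions and not RNA. Of the LSK markers, Kit and Ly6a held no near-end region, and among stem and progenitor markers Flt3 held 1, with 5.26, 6.8 and 7.19. Among the lineage markers Itgam held 1, and among the 5 stroma and endothelial markers Pecam1 did. Cd34, Slamf1, Procr, Cd48, Cd3e, Cd4, Cd8a, Ms4a1, Ly6g, Cxcl12, Lepr, Kdr and Cdh5 held none.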

How the data were processed

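CUT&Tag libraries of 1 group (n = 3) went through Bowtie2 (genome build mm10), SAMtools and MACS2, tools that the submitters' processing notes name without versions. Each deposited list holds the peaks of 1 library, with a fold enrichment (a ratio of summit pileup to local background), −log10 p, −log10 q and an integer score, all made by the authors. The deposited score was not used. The lowest −log10 q was 1.30 to 1.31 (q of 0.05). The sources used here do not say whether duplicates were removed.

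Pileup and background were solved from fold enrichment and −log10 p, and 100% of pileups came out whole within 0.05. The value of a library in a region is that of its strongest peak there, and the summit is the mean over libraries of the widest peaks' summits. Genes came from RefSeq (GRCm38.p6), and strand and internal starts from its list of 32851 starts. Named are the 15 strongest regions, the 10 genes with most regions, 4 genes per list, the 3 regions of widest spread, Bcl11a and the marker genes, and any gene beyond these was chosen after its values were seen. Some of the marker genes are not reported here. The members and lists were chosen with earlier results of these data known. Differences of medians were tested over libraries by exact sign flips, and shares carry exact Clopper-Pearson 95% intervals. Scripts ran in Python 3.11.15 with numpy 2.4.6 and were tested on simulated data. The motif search at summits was replaced by one at listed starts.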

Additional observations from a re-analysis of the deposited data

How the results depend on the processing

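Depth limits all counts to places where each library gave enough fragments, and 1 group without a control library leaves no baseline. No paired analysis was possible because there is a single group. The motif share at summits was not run, since no genome was used, and the density ratio has no value under other distance limits. The difference in fold enrichment against gene-end regions and that between regions at internal starts and the others kept their direction under every alternative run, and the density ratio (2.24 to 2.36 with 1 library left out) and width (480 to 540 bp) moved by less than 1 SD. The differences against deep regions (-0.08 to -0.07 with 1 library left out) and intergenic regions (-0.09 in each) turned to 0.24 and 0.21 with pileup over library background and to 0.0796 and 0.0248 with −log10 q; the cause was not tested.

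With 1 library left out, the regions numbered 3669 to 4021 in 2994 to 3268 genes. They then made up 14.6 to 14.9% of all, with a median fold enrichment of 5.11 to 5.43, 62.5 to 63.7% nearest the start, 29.5 to 31.2% with the nearest end occupied, 18.8 to 20.1% at an internal start and 30.1 to 30.8% of internal starts with a region. With −log10 q of at least 5 these 6 values (share of all, median, nearest the start, nearest end occupied, at an internal start, starts with a region) were 13.6%, 6.27, 65.8%, 22.4%, 25% and 23.3%. With peaks in at least 2 libraries they were 15.1%, 5.05, 60.8%, 34.2%, 16.5% and 33.1%. With 50% reciprocal overlap they were 13.7%, 6.07, 65.6%, 21.4%, 23.4% and 20.7%, and 2162 regions were left. Within 1 to 5 kb there were 2045 regions (8.90%), 68.1% nearest the start, 23.2% with the nearest end occupied, 26.1% at an internal start and 30.1% of starts with a region. Within 2 to 10 kb these shares were 10.7%, 60.6%, 30.4%, 17.0% and 25.9%. With start windows of 250 and 1000 bp, chosen after seeing the data, the share of regions at an internal start was 17.0 and 25.3% and that of starts with a region 22.6 and 33.0%. Leaving out the 11 regions of fold enrichment over 20, also chosen after seeing the data, moved none of these values by 1 SD. Among list counts, 115 of 130 alternatives stayed within 1.5 times. The largest exception was the hepatocyte list, with 0 genes, but 4 without library 3 and 4 with peaks in at least 2 libraries.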

Other observations

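The libraries differed at a hepatocyte gene, although library 3 holds most peaks. Alb, the gene of serum albumin (chr5:90460870-90476602), held 8 peaks 1 to 10 kb inside it in library 1 taken alone, with fold enrichments of 4.03 to 10.3 and pileups of 11 to 30 fragments. In library 2 it held 5, with fold enrichments of 6.42 to 9.58 and pileups of 19 to 34 fragments. Joined, libraries 1 and 2 shared 5 of these regions in Alb, and library 3 had 0 peaks anywhere in the gene. The rule that asks for a peak of all 3 libraries therefore leaves the gene out, and what sets library 3 apart here was not tested. The gene was picked after its values were seen.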
